A study of Oryza sativa with 5 samples.

Results

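This report covers the alcohol fermentation and non-symbiotic hemoglobin genes of rice (*Oryza sativa*) roots. The members were 6 named loci, found by their locus identifiers. They were the alcohol dehydrogenases ADH1 (Os11t0210300) and ADH2 (Os11t0210500), the pyruvate decarboxylases PDC1 (Os05t0469600) and PDC2 (Os03t0293500), and the hemoglobins Hb1 (Os03t0233900) and Hb2 (Os03t0226200). The identifiers place ADH1 and ADH2 on chromosome 11, PDC1 on chromosome 5, and PDC2, Hb1 and Hb2 on chromosome 3. ADH1, ADH2 and PDC2 were each counted as 2 transcripts, so there were 9 member transcripts among 40925 transcripts of 34330 loci.

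RNA was taken from roots of 2-week-old seedlings of 5 genotypes, which had been germinated on medium and then grown in soil pots in a greenhouse without a stress treatment. RCc3::OsNAC6 plants carried the transcription factor gene OsNAC6 behind the root-specific RCc3 promoter, and GOS2::OsNAC6 plants carried it behind the constitutive GOS2 promoter, both in the cultivar Nipponbare. Their reference was nontransgenic (NT) Nipponbare. The nac6 plants, of the cultivar Hwayoung, had a T-DNA insertion in OsNAC6, and their reference was nontransgenic Hwayoung. Each genotype was represented by 1 library, and the sources used here give neither the transgenic line nor the number of plants behind a library. Differences between libraries therefore had no replicate check, and every error below covers counting only.

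When oxygen runs short, mitochondrial respiration slows and plant roots make ATP by glycolysis. Pyruvate decarboxylase turns pyruvate into acetaldehyde and alcohol dehydrogenase reduces acetaldehyde to ethanol, which regenerates the NAD+ that glycolysis needs. Non-symbiotic hemoglobins of plants bind oxygen very tightly and, in their oxygenated form, convert nitric oxide to nitrate. In rice, ADH1 and PDC1 are known as genes of the submergence response, and ADH1 is the alcohol dehydrogenase that flooded seedlings depend on most. In barley, a hemoglobin of this kind is known to be induced by low oxygen.

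The 5 libraries held 22909719 to 26838552 counted reads over 38087 to 39010 detected transcripts. OsNAC6 itself (Os01t0884300-01) had 6050 reads in the library labelled RCc3::OsNAC6 and 6675 reads in the library labelled GOS2::OsNAC6, against 6215 in NT (Nipponbare). It had 8215 reads in the library labelled nac6, against 7600 in NT (Hwayoung). The log2 ratios of its normalised counts were -0.02 ± 0.03, 0.37 ± 0.03 and 0.31 ± 0.03 (SE), so OsNAC6 was modestly higher, as the label names, in the library labelled GOS2::OsNAC6, level in the library labelled RCc3::OsNAC6 and higher in the library labelled nac6, against its label. Which part of OsNAC6 the counted reads covered is not given. Whether libraries or table columns had been exchanged was not tested and would change what every comparison below compares, so the libraries are called by their labels throughout. The root gene RCc3 (Os02t0662000) was present in all 5 libraries, at 960 and 1151 RPM (reads per 1000000 counted) in the libraries labelled RCc3::OsNAC6 and GOS2::OsNAC6 and 637 RPM in NT (Nipponbare). It was lower in both Hwayoung libraries, at 182 RPM in the library labelled nac6 and 206 RPM in NT (Hwayoung). Of 55 photosynthesis transcripts used as shoot markers, 49 to 51 were detected, and together they made up 37.3 to 59.4 RPM.

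The member transcripts together took 0.0676% of the reads in the library labelled RCc3::OsNAC6 and 0.0372% of them in the library labelled GOS2::OsNAC6, against 0.0258% in NT (Nipponbare). They took 0.710% in the library labelled nac6, against 0.486% in NT (Hwayoung). Levels are given below as RPM of each library's own total with a 95% interval for counting error, since the 3 deposited tables were scaled separately. RPM is not corrected for transcript length, so levels are compared between libraries and not between genes.

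Pyruvate decarboxylase makes the acetaldehyde of the pathway, and PDC1 had the widest range of all members. PDC1 (Os05t0469600-01) had 188 reads in the library labelled RCc3::OsNAC6, which was 7.25 RPM (5.86 to 8.87). It had 31 reads in the library labelled GOS2::OsNAC6, or 1.30 RPM (0.702 to 2.07), and 24 reads in NT (Nipponbare), or 0.894 RPM (0.462 to 1.56). In the Hwayoung libraries it had 18654 reads in the library labelled nac6, or 814 RPM (798 to 831), against 15695 reads in NT (Hwayoung), or 666 RPM (651 to 681). PDC1 thus rested on few reads in 2 of the Nipponbare libraries and on many in both Hwayoung libraries, with a highest level 911 times the lowest. PDC2 varied far less. Its more abundant transcript (Os03t0293500-02) had 159 RPM (153 to 166) in the library labelled RCc3::OsNAC6 and 114 RPM (108 to 121) in the library labelled GOS2::OsNAC6, against 72.3 RPM (67.8 to 77.0) in NT (Nipponbare). It had 342 RPM (332 to 353) in the library labelled nac6, against 311 RPM (301 to 321) in NT (Hwayoung), so its highest level was 4.74 times the lowest. The other PDC2 transcript (Os03t0293500-01) had the same order of libraries and a range of 5.13 times.

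Alcohol dehydrogenase completes the route to ethanol. ADH1 (Os11t0210300-01) had 2620 reads in the library labelled RCc3::OsNAC6, or 101 RPM (95.6 to 107), and 913 reads in the library labelled GOS2::OsNAC6, or 38.1 RPM (34.7 to 41.8), against 622 reads in NT (Nipponbare), or 23.2 RPM (20.7 to 25.9). It had 20588 reads in the library labelled nac6, or 899 RPM (881 to 916), against 18747 reads in NT (Hwayoung), or 795 RPM (779 to 811). All 5 intervals for ADH1 were separate. ADH2 (Os11t0210500-01) had 166 RPM (159 to 173) in the library labelled RCc3::OsNAC6 and 99.1 RPM (93.6 to 105) in the library labelled GOS2::OsNAC6, against 78.8 RPM (74.2 to 83.7) in NT (Nipponbare). It had 2737 RPM (2707 to 2767) in the library labelled nac6, from 62698 reads, against 1443 RPM (1421 to 1465) in NT (Hwayoung), from 34010 reads. The deposited value of ADH2 in NT (Hwayoung) allowed 3 whole-read totals between 33989 and 34031, of which the middle one is used. The second transcripts of ADH1 (Os11t0210300-02) and ADH2 (Os11t0210500-02) had ranges of 40.9 and 34.7 times between their lowest and highest libraries.

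The hemoglobins had few reads in Nipponbare roots, as PDC1 did. Hb1 (Os03t0233900-01) had 241 reads in the library labelled RCc3::OsNAC6, or 9.29 RPM (7.67 to 11.1), and 57 reads in the library labelled GOS2::OsNAC6, or 2.38 RPM (1.55 to 3.38), against 44 reads in NT (Nipponbare), or 1.64 RPM (1.03 to 2.48). It had 59.1 RPM (54.6 to 63.6) in the library labelled nac6, against 65.6 RPM (61.0 to 70.4) in NT (Hwayoung). Hb2 (Os03t0226200-01) had 496 reads in the library labelled RCc3::OsNAC6, or 19.1 RPM (16.8 to 21.7), and 73 reads in the library labelled GOS2::OsNAC6, or 3.05 RPM (2.11 to 4.16), against 38 reads in NT (Nipponbare), or 1.42 RPM (0.852 to 2.21). It had 133 RPM (127 to 140) in the library labelled nac6, against 166 RPM (159 to 173) in NT (Hwayoung). Hb1 and Hb2 were the members whose highest library was NT (Hwayoung). For the other 7 member transcripts it was the library labelled nac6.

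**Figure D1:**
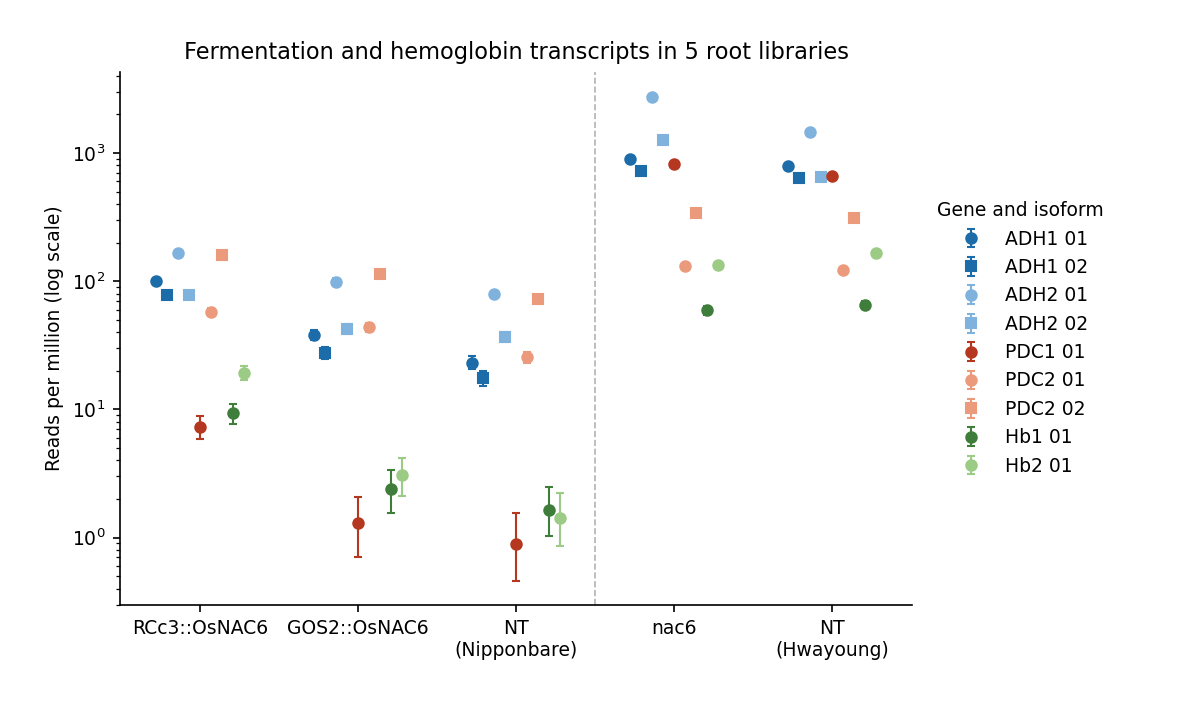
RPM (log axis) of the 9 member transcripts in the 5 root libraries, 1 point per library, with bars for the 95% counting interval; the dashed line separates the Nipponbare libraries on the left from the Hwayoung libraries on the right. PDC1 lies at 0.894 to 7.25 RPM on the left and at 666 to 814 RPM on the right, while PDC2 moves least.

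All 9 member transcripts had one order of libraries, with NT (Nipponbare) lowest, then the libraries labelled GOS2::OsNAC6 and RCc3::OsNAC6, and both Hwayoung libraries above them. Among 32376 transcripts with at least 100 reads over the libraries, 2.5% had this order. Of 36 pairs of libraries that were neighbours in a transcript's order, 6 had overlapping counting intervals. In 4 of them, PDC1, Hb1, Hb2 and the second ADH2 transcript, the pair was the library labelled GOS2::OsNAC6 and NT (Nipponbare). The other 2 were the library labelled nac6 and NT (Hwayoung) for Hb1 and for PDC2 (Os03t0293500-01). Overlaps were not counted over all transcripts, so these numbers do not set the members apart. The transcripts of one locus share exons, and the members are not replicates of a genotype.

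In the library labelled RCc3::OsNAC6, all 9 member transcripts were at least 2-fold higher than in NT (Nipponbare), and 8 of 9 were when count column 1 alone was used. Within a table, a transcript was tested when its deposited normalised count averaged at least 10 over the pair and called when log2 of the ratio, with 1 added to each count, was at least 1 or at most -1. All 9 member transcripts passed the filter and all 9 were called higher, where 4.47% of 32487 transcripts were. The median log2 ratio was 2.09 over the members and 0.01 over all transcripts tested. Hb2 had the largest log2 ratio, 3.65 ± 0.32 (SE), with a rank of 49 from the top. PDC1 followed with 2.89 ± 0.42 and Hb1 with 2.42 ± 0.31. The ADH1 transcripts had 2.09 ± 0.09 and 2.12 ± 0.10. PDC2 and ADH2 lay close to the threshold, with 1.15 ± 0.09 and 1.11 ± 0.05 for the PDC2 transcripts and 1.04 ± 0.05 and 1.07 ± 0.07 for the ADH2 transcripts. On count column 1 alone, the first ADH2 transcript (Os11t0210500-01) had 0.97 and lost its call, and 3951 transcripts were called in either direction. With a 4-fold threshold, 5 member transcripts were called, where 670 of 32487 transcripts were called in either direction. The shoot markers also differed between these libraries, at 37.3 RPM in the library labelled RCc3::OsNAC6 against 58.7 RPM in NT (Nipponbare), with a median log2 ratio of -0.79 over the 17 that passed the filter, and their part in the result was not tested. In whole roots, a change in the number of cells of a type and a change in RNA per cell cannot be told apart.

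The members were also higher in the library labelled GOS2::OsNAC6 than in NT (Nipponbare), with smaller ratios. All 9 log2 ratios were positive, between 0.32 and 1.15, and 1 of 9, Hb2, was called, where 1.83% of 31987 transcripts were called higher. The median was 0.74 over the members and -0.01 over all transcripts tested. Hb2 had 1.15 ± 0.38, PDC2 0.88 ± 0.09 and 0.76 ± 0.06, ADH1 0.82 ± 0.10 and 0.74 ± 0.12, and ADH2 0.43 ± 0.06 and 0.32 ± 0.09. PDC1, at 0.60 ± 0.52, and Hb1, at 0.61 ± 0.38, had intervals that included 0, so a difference in these genes was not detectable at this depth. The Hb2 call was lost with a pseudocount of 5, with a minimum count of 50 and on 1 of the 2 count columns alone. This comparison and the previous one share the NT (Nipponbare) library.

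The libraries labelled RCc3::OsNAC6 and GOS2::OsNAC6 were also set against each other on their RPM, which does not involve NT (Nipponbare). All 9 members were higher in the library labelled RCc3::OsNAC6 than in the library labelled GOS2::OsNAC6. Each had a counting interval above 0 on the log2 scale, but the share of all transcripts with such an interval was not computed. Of the 9 members, 5 were at least 2-fold higher, where 7.18% of 32208 transcripts were. Ratios here and in the comparison between cultivars add 1 read to each count. Hb2 was 6.20-fold higher (4.47 to 8.59), PDC1 5.45-fold (3.29 to 9.03) and Hb1 3.85-fold (2.62 to 5.65). The ADH1 transcripts were 2.65-fold and 2.84-fold higher, the ADH2 transcripts 1.68-fold and 1.84-fold, and the PDC2 transcripts 1.32-fold and 1.39-fold. The median log2 ratio of all transcripts was 0.13 on this scale, so part of the smallest of these differences lies within the shift of all transcripts.

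Among the members, ADH2 was the one in the library labelled nac6 that stood furthest above NT (Hwayoung), and the others had log2 ratios between -0.16 and 0.45. The ADH2 transcripts had log2 ratios of 1.08 ± 0.01 and 1.11 ± 0.02, and they were the 2 of 9 called higher, where 6.3% of 30767 transcripts were. PDC1 had 0.45 ± 0.02, the ADH1 transcripts 0.33 ± 0.02 each, and the PDC2 transcripts 0.25 ± 0.05 and 0.29 ± 0.03. Hb1 had 0.00 ± 0.07 and Hb2 -0.16 ± 0.05. The median was 0.33 over the members and -0.01 over all transcripts tested. Scaling by library totals in place of the authors' size factors lowered the ADH2 log2 ratios to 0.92 and 0.95, under the threshold, and the member median to 0.17. On that scale Hb1 had -0.15 and Hb2 -0.32. An exact binomial test on halved reads, adjusted by Benjamini-Hochberg over all transcripts, called 9, 7 and 8 of the 9 members in the RCc3::OsNAC6, GOS2::OsNAC6 and nac6 comparisons, where it called 43.6%, 28.8% and 40.2% of all transcripts. It compares pairs of libraries and not the genotypes.

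**Figure D2:**
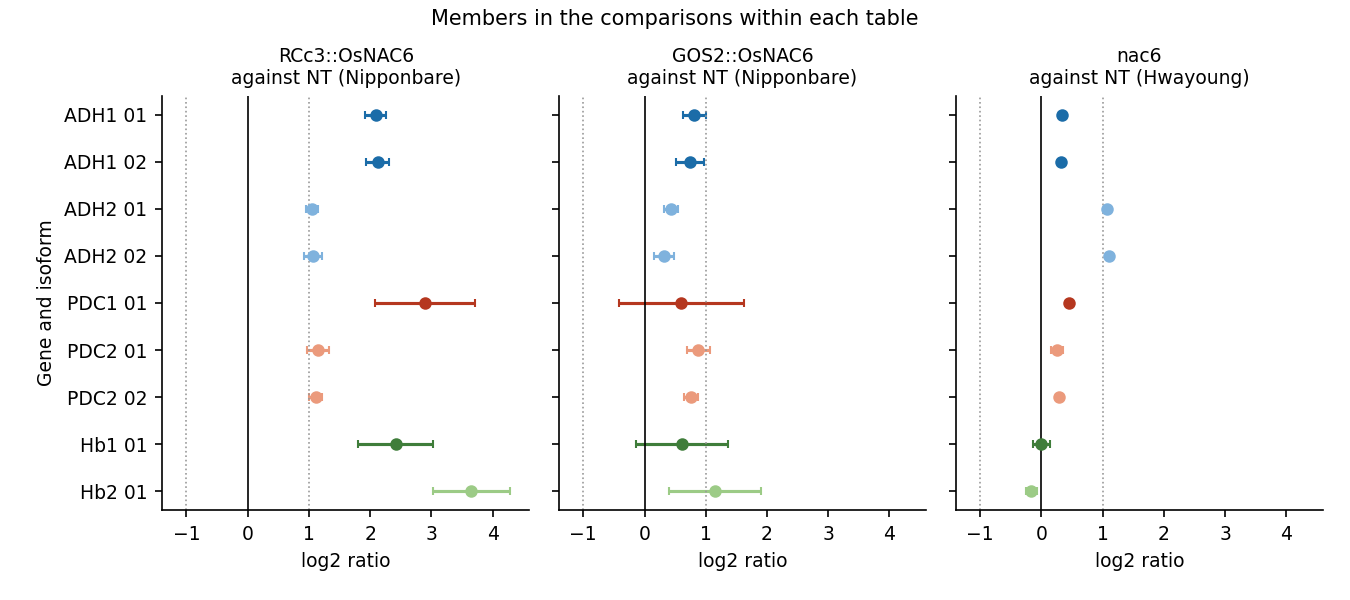
Log2 ratio of the deposited normalised counts, with 1 added, for the 9 member transcripts in the 3 comparisons, with bars for the 95% counting interval; the solid line marks no difference and the dotted lines mark 2-fold. All 9 lie past 2-fold in the RCc3::OsNAC6 panel, Hb2 alone does in the GOS2::OsNAC6 panel, and the ADH2 transcripts do in the nac6 panel.

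Each member differed more between the nontransgenic libraries of the 2 cultivars, on RPM, than in any comparison within a table. All 9 members were at least 2-fold higher in NT (Hwayoung) than in NT (Nipponbare), where 8.25% of 32205 transcripts were, and 7 of 9 were at least 16-fold higher, where 1.29% of transcripts were. PDC1 was 715-fold higher (420 to 1216), which ranked 25 from the top. Hb2 was 114-fold higher (74.7 to 175) and Hb1 39.1-fold (26.3 to 58.3). The ADH1 transcripts were 34.3-fold (30.8 to 38.1) and 36.2-fold higher, the ADH2 transcripts 18.3-fold (17.3 to 19.4) and 17.9-fold, and the PDC2 transcripts 4.79-fold (4.29 to 5.35) and 4.30-fold. The median log2 ratio was 5.10 over the members and -0.21 over all transcripts tested.

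The library labelled nac6 stood as far above NT (Nipponbare), with 9 of 9 members at least 2-fold and 7 of 9 at least 16-fold higher, where 10.3% and 1.69% of transcripts were, and a member median of 5.14. The ratios of PDC1, at 874-fold, ADH1, at 38.7-fold and 40.8-fold, ADH2, at 34.7-fold for both transcripts, and PDC2, at 5.13-fold and 4.73-fold, were larger than those of NT (Hwayoung), and those of Hb1 and Hb2, at 35.2-fold and 91.7-fold, were smaller. NT (Hwayoung) also stood above the library labelled RCc3::OsNAC6, where 8 of 9 members were at least 2-fold higher against 10.2% of transcripts, by 91.4-fold for PDC1 and by 1.95-fold for PDC2 (Os03t0293500-02). The cultivars were measured in separate tables, with 1 nontransgenic library each, so a difference of cultivar cannot be told apart from a difference in growth, sampling or library preparation. The root gene RCc3 moved the other way between these libraries, at 206 RPM in NT (Hwayoung) and 637 RPM in NT (Nipponbare), and its part in the result was not tested.

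**Figure D3:**
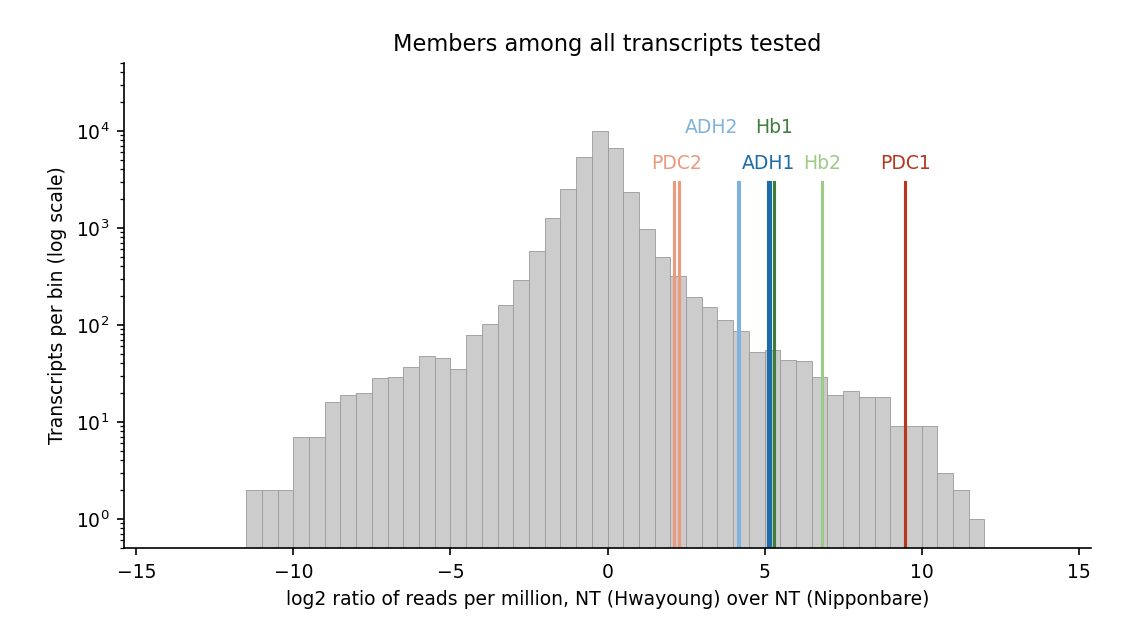
Number of transcripts (log axis) by log2 ratio of RPM, NT (Hwayoung) over NT (Nipponbare), for the 32205 transcripts tested, in grey; coloured lines mark the 9 member transcripts. The members lie between 4.30-fold for PDC2 and 715-fold for PDC1, all to the right of the bulk of transcripts.

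Because the relatives of each pair moved by different amounts, their shares of the pair's reads changed. PDC1 took 3.23% (2.62 to 3.94) of the PDC1 and PDC2 reads in the library labelled RCc3::OsNAC6 and 0.813% (0.441 to 1.29) in the library labelled GOS2::OsNAC6, against 0.907% (0.470 to 1.58) in NT (Nipponbare). It took 63.3% (62.5 to 64.0) in the library labelled nac6, against 60.6% (59.8 to 61.4) in NT (Hwayoung). The intervals are exact Clopper-Pearson intervals on halved reads. The PDC1 share was therefore separate between every Nipponbare and every Hwayoung library, and the libraries labelled GOS2::OsNAC6 and NT (Nipponbare) overlapped.

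The ADH1 share did not divide by cultivar. ADH1 took 42.3% (41.0 to 43.6) of the ADH1 and ADH2 reads in the library labelled RCc3::OsNAC6. It took 31.6% (29.8 to 33.5) in the library labelled GOS2::OsNAC6, against 26.1% (24.2 to 28.0) in NT (Nipponbare). It took 28.7% (28.4 to 29.1) in the library labelled nac6, against 40.6% (40.1 to 41.0) in NT (Hwayoung). The larger ADH1 shares were thus those of NT (Hwayoung) and of the library labelled RCc3::OsNAC6. Hb1 took 32.7% (27.8 to 37.7) of the Hb1 and Hb2 reads in the library labelled RCc3::OsNAC6 and 43.8% (30.8 to 56.0) in the library labelled GOS2::OsNAC6, against 53.7% (37.4 to 69.3) in NT (Nipponbare). It took 30.7% (28.8 to 32.7) in the library labelled nac6, against 28.3% (26.7 to 30.1) in NT (Hwayoung). All 3 Nipponbare shares of Hb1 were thus above both Hwayoung shares, but the interval of the library labelled RCc3::OsNAC6 overlapped both Hwayoung intervals and that of the library labelled GOS2::OsNAC6 overlapped that of the library labelled nac6. Within a locus, the counted proportions of the transcripts varied little. The second ADH1 transcript took 41.8% to 44.4% of that locus, the second ADH2 transcript 30.1% to 32.0%, and the first PDC2 transcript 26.0% to 28.2%. How reads of shared exons were divided between transcripts is not given, so these proportions do not by themselves measure isoform use.

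**Figure D4:**
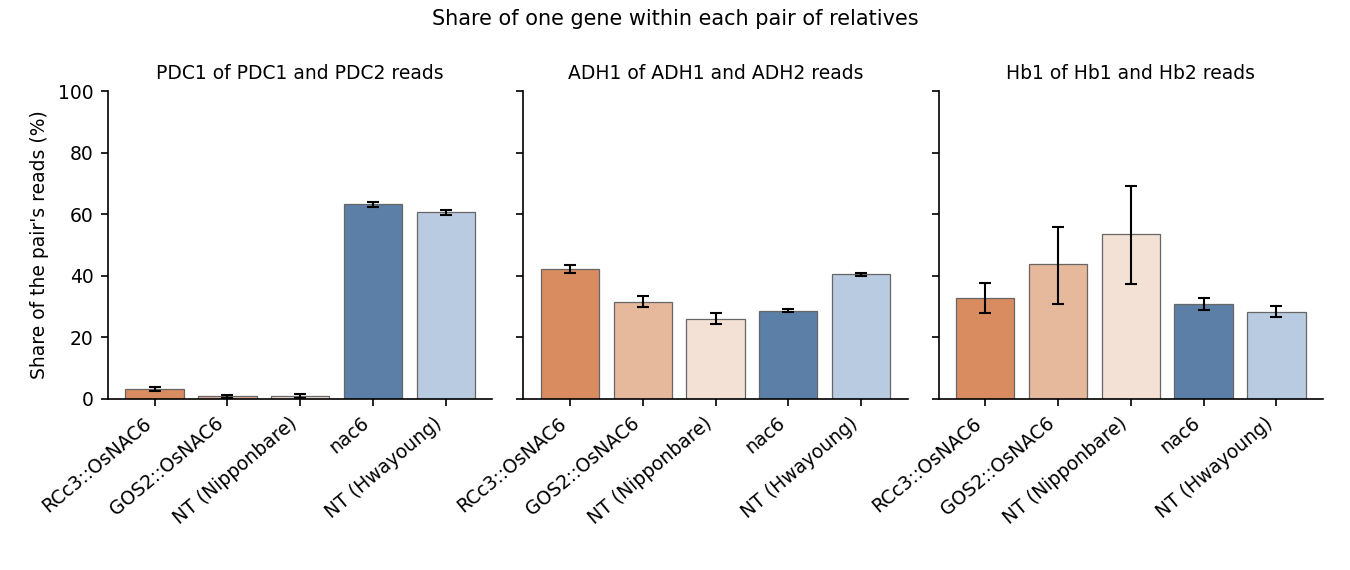
Share of the reads of each pair of relatives (in %) that PDC1, ADH1 and Hb1 took in the 5 libraries; bars start at 0 and whiskers are 95% Clopper-Pearson intervals on halved reads. The PDC1 share is 0.813% to 3.23% in the Nipponbare libraries and 60.6% to 63.3% in the Hwayoung libraries, the ADH1 shares do not divide that way, and the Hb1 shares are 32.7% to 53.7% in the Nipponbare libraries and 28.3% to 30.7% in the Hwayoung libraries, with some whiskers overlapping.

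The wider pathway list, taken mostly by words in the deposited function texts, held 230 transcripts. They came from other alcohol and lactate fermentation, glycolysis, sucrose cleavage, hemoglobin, nitrate reduction and low oxygen signalling loci, and from aldehyde dehydrogenase and alanine aminotransferase loci. Its words also caught proteins of other function, such as quinoprotein-like and short-chain dehydrogenases. In the library labelled RCc3::OsNAC6, 14 of 205 tested were called higher and 9 lower than in NT (Nipponbare), which is 6.83% and 4.39% against 4.47% and 6.03% of all transcripts, with a median log2 ratio of 0.24. The 14 included 4 of 26 aldehyde dehydrogenase transcripts (15.4%). That class had 1 of 26 called higher in the library labelled GOS2::OsNAC6 and 0 of 27 in the library labelled nac6. The library labelled GOS2::OsNAC6 had 3 of 202 called higher and 5 lower, with a median of 0.21, where 1.83% and 2% of all transcripts were. The library labelled nac6 had 4 of 199 called higher and 7 lower than in NT (Hwayoung), with a median of 0.04, where 6.3% and 3.65% of all transcripts were. Across the cultivars, 44 of 204 were at least 2-fold higher in NT (Hwayoung) than in NT (Nipponbare) and 30 were at least 2-fold lower, which is 21.6% and 14.7% against 8.25% and 16.4% of all transcripts. The list had a median log2 ratio of -0.03, against 5.10 for the members.

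Within the list, lactate dehydrogenase, which ferments pyruvate to lactate, and a further pyruvate decarboxylase came closest to PDC1. Lactate dehydrogenase Os06t0104900-01 had 127 reads in the library labelled RCc3::OsNAC6 and 24 reads in the library labelled GOS2::OsNAC6, against 38 in NT (Nipponbare). It had 28501 reads in the library labelled nac6, against 12855 in NT (Hwayoung). Its log2 ratios were 1.72 ± 0.35, -0.35 ± 0.50 and 1.34 ± 0.02 in the 3 comparisons, and it was 375-fold higher in NT (Hwayoung) than in NT (Nipponbare). All 3 lactate dehydrogenase transcripts were at least 2-fold higher in NT (Hwayoung), where 8.25% of all transcripts were. The others, Os02t0105400-01 and Os02t0105400-02, are transcripts of 1 locus and were 5.95-fold and 6.06-fold higher. The pyruvate decarboxylase fragment Os05t0469800-00, whose identifier neighbours that of PDC1, had 152 reads in the library labelled RCc3::OsNAC6 and 27 reads in the library labelled GOS2::OsNAC6, against 48 in NT (Nipponbare). It had 22107 reads in the library labelled nac6, against 16254 in NT (Hwayoung). How reads that fit both of these pyruvate decarboxylases were counted is not given, so their separate values are uncertain. The list held 3 pyruvate decarboxylase transcripts tested between the cultivars. In NT (Hwayoung), 2 were at least 2-fold higher than in NT (Nipponbare) and 1 lower, where 8.25% and 16.4% of all transcripts were. Among them, Os01t0160100-01 was 2.40-fold higher there. It had 381 reads in the library labelled RCc3::OsNAC6, against 532 in NT (Nipponbare).

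Nitrate reductase makes the nitrite from which plants can form nitric oxide. The class taken by this name also held Os02t0258900-02, annotated as similar to CNX2, a gene named after a cofactor of nitrate reductase and xanthine dehydrogenase. In this class, 4 of 7 transcripts were called higher in the library labelled RCc3::OsNAC6, where 4.47% of all transcripts were. The class had 0 of 6 called higher in the library labelled GOS2::OsNAC6 and 0 of 6 in the library labelled nac6, where 1.83% and 6.3% were. The transcripts of 1 locus made up 3 of the 4, at log2 ratios of 1.05, 1.05 and 1.04, just past the threshold. The remaining one, Os02t0770800-01, had 90 reads in the library labelled RCc3::OsNAC6, 4 in the library labelled GOS2::OsNAC6 and 20 in NT (Nipponbare). Of 6 transcripts of this class, 4 were at least 2-fold higher in NT (Hwayoung) than in NT (Nipponbare), where 8.25% of all transcripts were. The class had a median log2 ratio of 2.51.

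The hemoglobin Hb4 (Os03t0234100-01) did not have the order of Hb1 and Hb2. It had 62 reads in the library labelled RCc3::OsNAC6 and 60 reads in the library labelled GOS2::OsNAC6, against 8 in NT (Nipponbare), and 17 in the library labelled nac6, against 10 in NT (Hwayoung). Its log2 ratios were 2.72 ± 0.72 and 2.89 ± 0.72 in the comparisons of the RCc3::OsNAC6 and GOS2::OsNAC6 labels with NT (Nipponbare), where both were called, and it did not pass the filter in the nac6 comparison. The serine/threonine protein kinase Os11t0113700-01, annotated to abiotic stress, had 393 reads in the library labelled RCc3::OsNAC6 and 69 reads in the library labelled GOS2::OsNAC6, against 168 in NT (Nipponbare). It had 160 reads in the library labelled nac6, against 256 in NT (Hwayoung). Of the glycolytic and sucrose synthase transcripts, 0 of 11 sucrose synthases, 0 of 8 enolases, 0 of 8 triosephosphate isomerases and 0 of 24 pyruvate kinases were called in either direction in the library labelled RCc3::OsNAC6, where 4.47% of all transcripts were called higher and 6.03% lower. Between the cultivars, 4 of 8 triosephosphate isomerases were at least 2-fold higher in NT (Hwayoung) than in NT (Nipponbare), and 5 of 12 phosphofructokinases were higher and 4 lower, where 8.25% and 16.4% of all transcripts were. Among phosphofructokinases, Os01t0191700-01 was lower in the library labelled RCc3::OsNAC6, at 2660 reads against 11107 in NT (Nipponbare), with a log2 ratio of -2.04 ± 0.04. The pyruvate kinase domain transcript Os12t0189300-01 was lower in the library labelled nac6, at 4581 reads against 18065 in NT (Hwayoung), with a log2 ratio of -1.78 ± 0.03.

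The list also held other transcripts whose function text names alcohol dehydrogenase, among them allyl alcohol, quinoprotein-like, short-chain and zinc-containing types. Some carry the words beside another annotation, such as Os01t0254100-02, similar to a Lissencephaly type-1-like motif. Transcripts of this class were called lower more than higher in the library labelled RCc3::OsNAC6. Of 51 tested, 1 was called higher, where 4.47% of all transcripts were, and 7 (13.7%) were called lower, where 6.03% were. Of 51 tested in the library labelled GOS2::OsNAC6, 1 was higher and 3 (5.88%) lower, where 1.83% and 2% of all transcripts were. Of 50 in the library labelled nac6, 3 (6%) were higher and 3 (6%) lower, where 6.3% and 3.65% of all transcripts were. Os12t0226900-01 was the transcript called higher for the RCc3::OsNAC6 label, and the same one was called higher for the GOS2::OsNAC6 label. Its reads under these labels were 221 and 65, against 23 in NT (Nipponbare). For the nac6 label it was not called, at 30 reads against 21 in NT (Hwayoung). The allyl alcohol dehydrogenase Os12t0227400-01 was lower in 2 comparisons, with log2 ratios of -1.23 ± 0.13 for the RCc3::OsNAC6 label and -1.29 ± 0.09 for the nac6 label. The short-chain Os11t0443700-01 had 22 reads in the library labelled nac6, against 238 in NT (Hwayoung). The quinoprotein-like Os02t0585700-00 and Os02t0586000-01 and the allyl alcohol dehydrogenase Os12t0226700-01 were lower in the libraries labelled RCc3::OsNAC6 and GOS2::OsNAC6 than in NT (Nipponbare), with log2 ratios between -2.02 and -1.06.

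**Figure D5:**
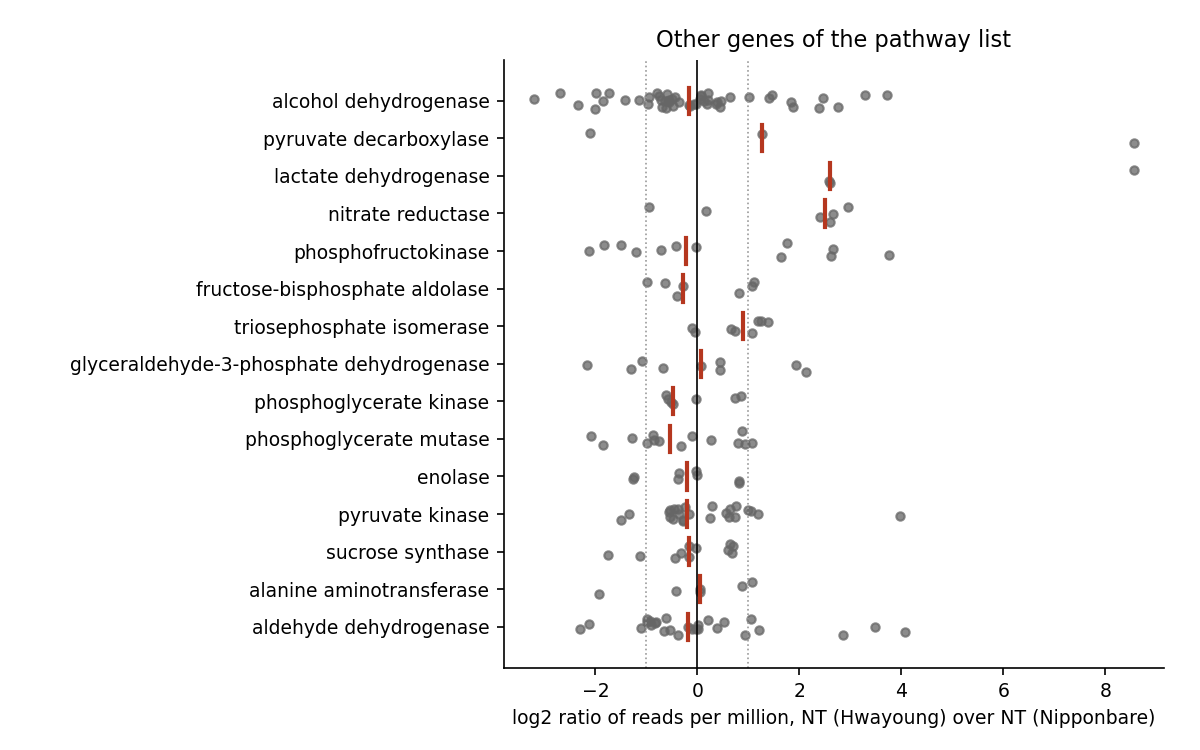
Log2 ratio of RPM, NT (Hwayoung) over NT (Nipponbare), for transcripts of 15 classes of the wider pathway list, 1 point per transcript, shifted up or down at random within a class to show them; red bars are class medians and dotted lines mark 2-fold. Lactate dehydrogenase and nitrate reductase have medians of 2.60 and 2.51, and the medians of the glycolytic classes run between -0.54 for phosphoglycerate mutase and 0.90 for triosephosphate isomerase.

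The transcripts most like each member were found by the distance between their log2 RPM profiles over the 5 libraries, after each profile was centred on its own mean. For PDC1 the nearest was the pyruvate decarboxylase fragment Os05t0469800-00, followed by Os07t0501100-01, a chalcone synthase, with 124 reads in the library labelled RCc3::OsNAC6 and 4 reads in the library labelled GOS2::OsNAC6, against 13 in NT (Nipponbare). That transcript had 18195 reads in the library labelled nac6, against 9394 in NT (Hwayoung). For PDC2 the nearest, at a distance of 0.07, was the hypothetical transcript Os03t0293450-00, whose identifier precedes that of PDC2, and the next were both transcripts of a glutathione transferase locus (Os01t0933900). Whether reads were shared between Os03t0293450-00 and PDC2 is not given. For ADH1 they were a transferase family protein (Os11t0643100-01), a peroxidase (Os01t0963000-04) and an ent-kaurene synthase (Os02t0570400-01). For ADH2 they were a hypothetical transcript (Os11t0530650-00), WRKY26 (Os01t0714800-01) and another peroxidase (Os04t0688500-01).

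For Hb1 the nearest were the hypothetical transcript Os02t0571000-00, an ent-copalyl diphosphate synthase (Os02t0570900-00), which acts in diterpenoid synthesis, and a trans-cinnamate monooxygenase (Os02t0467000-00). The ent-copalyl diphosphate synthase had 147 reads in the library labelled RCc3::OsNAC6 and 24 reads in the library labelled GOS2::OsNAC6, against 15 in NT (Nipponbare), and 827 in the library labelled nac6, against 1134 in NT (Hwayoung). For Hb2 they were a terpenoid synthase domain transcript (Os02t0571100-01), at a distance of 0.52, and 2 conserved hypothetical transcripts. The ent-kaurene synthase, ent-copalyl diphosphate synthase, terpenoid synthase domain transcript and Os02t0571000-00, named here for ADH1, Hb1 and Hb2, carry close identifiers on chromosome 2. With 5 libraries, a small distance describes these profiles and carries no test.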

How the data were processed

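Strand-specific RNA-seq libraries of roots were sequenced by Illumina HiSeq. The authors deposited 3 tables, 1 for each comparison, whose signal values are DESeq-normalised counts per transcript of the rice annotation, and the submitters' processing notes name the build IRGSP-1.0. The aligner and counter are not given in the sources used here. Each deposited value proved to be the mean of 2 count columns of 1 library, each divided by its size factor, and 100% of positive values resolved into whole reads. The columns behaved as repeat counts of 1 library (mean chi-square 1.75 to 1.77), so they were counted as 1 sample and counting variances were multiplied by 1.76. Read intervals used halved reads, because both mates appeared to have been counted. Each table also holds the authors' own fold changes, log2 fold changes, p-values and adjusted p-values, which were not used.

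Log2 ratios were taken within a table with a pseudocount of 1, where the pair averaged at least 10, and called at 2-fold, the cutoff the study states. Across tables, RPM of recovered reads was used, for transcripts averaging at least 20 reads. With 1 library per group no test between groups was possible. Transcripts of the pathway list qualified to be named if called in 2 or more comparisons. They also qualified if among the 3 largest rises or falls of a comparison with at least 100 reads. Not all that qualified are named, and others named were chosen after their values were seen. The members and lists were chosen with earlier results of these data known. Python 3.11.15, numpy 2.4.6, pandas 2.3.3 and scipy 1.17.1 were used, and the recovery and calls were tested on simulated data. Alternatives covered the pseudocount, scaling, filter, threshold, isoforms, count columns and an exact binomial test on reads. Sequences and coordinates of the members are not used here.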

Additional observations from a re-analysis of the deposited data

Results flagged for a closer look

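The serine/threonine protein kinase transcript Os11t0113700-01 was called higher for the RCc3::OsNAC6 label against NT (Nipponbare), with a log2 ratio of 1.22 ± 0.18 (SE, counting only), and called lower for the GOS2::OsNAC6 label, with -1.005 ± 0.27. It is given because the libraries with these labels moved in opposite directions. The difference was not tested, since each group had 1 library and both comparisons share NT (Nipponbare). The second transcript of the locus, Os11t0113700-02, had 1.30 ± 0.20 and -0.66 ± 0.28.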

How the results depend on the processing

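No paired analysis was possible because each group had 1 library, and for the same reason no replicate could be left out. Alternatives were computed for 27 member log2 ratios (9 transcripts in 3 comparisons). Of their 162 alternative values, 153 moved by less than the counting interval and the other 9 were those of the nac6 comparison under scaling by library totals; the sign changed once under that scaling, for Hb1, and once on count column 2 alone. In the library labelled RCc3::OsNAC6, members called were 8 of 9 on count column 1 alone and 5 at a 4-fold threshold. Calls in the pathway list were 7 at 4-fold and 131 by the exact binomial test on halved reads, and calls over all transcripts were 5909 with no filter, 1901 at a minimum of 50, 670 at 4-fold and 14179 by the binomial test (43.6%), against 3411. That test compares 2 libraries and not the genotypes. For the GOS2::OsNAC6 label, members called were 0 with a pseudocount of 5, a minimum of 50, a 4-fold threshold or count column 2 alone, and 7 by the binomial test. Pathway list calls there, 8 in the comparison as reported, were 5 with a pseudocount of 5, 19 with no filter, 3 at a minimum of 50, 1 at 4-fold and 88 by the binomial test. Calls over all transcripts, 1227 as reported, were 842 with a pseudocount of 5, 3434 with no filter and 494 at a minimum of 50. They were 132 at 4-fold, 1906 and 1923 on count columns 1 and 2 alone and 9220 by the binomial test. For the nac6 label, members called were 0 with library totals or at 4-fold, 1 when isoforms were summed by locus (6 loci) and 8 by the binomial test, and the member median was 0.17 with library totals. Pathway list calls, 11 as reported, were 19 with no filter, 1 at 4-fold and 93 by the binomial test. Calls over all transcripts, 3061 as reported, were 3138 with library totals, and 2755 loci were called when isoforms were summed. Transcript calls were 5902 with no filter, 1582 at a minimum of 50, 616 at 4-fold and 12362 by the binomial test. Between the cultivars, the member median was 5.31 once the median ratio of all transcripts was set to 0, an alternative chosen after seeing the data, against 5.10. Apart from the filters, thresholds and scalings named by their construction, the cause of these shifts was not tested. Depth limits PDC1, Hb1 and Hb2 in NT (Nipponbare), which rest on 24, 44 and 38 reads.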
